A study of Homo sapiens with 12 samples.

Results

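The genes described here encode 9 surface antigens by which leukemia cells are typed, picked by symbol from the 20003 genes of the FPKM tables. They are ANPEP (CD13), CD33, FUT4, CD34, CD38, PROM1 (CD133), CD44, SPN (CD43) and CD9. FUT4 stands for CD15, a sugar structure that the FUT4 enzyme helps to build. All 9 symbols were found, with 1 row each in all 12 samples. NB4 is an acute promyelocytic leukemia line that carries the PML-RARα fusion, and Kasumi-1 is an acute myeloid leukemia line that carries the AML1-ETO fusion of t(8;21). OGP46 is a diterpenoid made from oridonin. In each line, 3 samples received 1 μM OGP46 and 3 control samples received DMSO, for 48 h by the labels and methods, while a figure legend of the study gives 72 h. Each line is a single model of its leukemia, so line, fusion gene and library set cannot be told apart in any comparison of NB4 with Kasumi-1. The question addressed is whether OGP46 moves the mRNA of these antigens, which are commonly used to follow how far leukemia cells have differentiated.

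Blood cells change their surface proteins as they mature, and these changes are read by antibodies to antigens named by CD numbers. CD34 and CD133 mark stem and progenitor cells and are lost early, whereas CD13, CD33 and CD15 mark cells committed to the granulocyte and monocyte lineage. CD38, CD43, CD44 and CD9 are carried by many blood cells at levels that vary with lineage and activation. Promyelocytic leukemia cells are typically positive for CD13 and CD33 and negative for CD34, and cells with t(8;21) are often positive for CD34.

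Values are FPKM, fragments scaled by exon length and by library size, so that levels of different genes can be set side by side. All tests were made with limma on log2(FPKM + 0.1), and genes whose mean fell under 0.1 FPKM were left out. A call required an adjusted p (Benjamini-Hochberg, over all genes) under 0.05 together with a change of 0.58 or more on the log2 scale, that is 1.49-fold. Neither counts nor library totals were used, so the depth is unknown and precision rests on 3 samples a group. The samples are labelled by number only, and the p-values measure the spread between these samples, which may be technical. Because RNA came from whole cultures, a change in the share of cells that carry an antigen and a change in RNA per cell cannot be told apart.

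The libraries were checked against markers first. The 4 genes listed as Kasumi-1 markers (KIT, RUNX1T1, TRH and POU4F1) summed to between 145.1 and 199.0 FPKM in the Kasumi-1 libraries and to at most 2.29 FPKM in NB4. The 5 granule protein genes listed as NB4 markers were all lower in NB4 than in Kasumi-1 controls and did not single out NB4, and PML-RARα itself was not checked. Of 10 markers of lymphoid, red, stromal and epithelial cells, 7 stayed below 0.2 FPKM in all libraries, and the exceptions were CD3D, EPCAM and CD79A. CD3D had at least 13.5 FPKM in NB4 and at most 0.68 FPKM in Kasumi-1, and EPCAM and CD79A were above 0.2 FPKM in all libraries of both lines. Among genes of the other line, NB4 control 3 and Kasumi-1 control 2 stood apart. A set of 10 genes strong in Kasumi-1 and nearly absent from NB4 had a median of 1.13% of its Kasumi-1 level in NB4 control 3, against 0.0431% to 0.261% in the other NB4 libraries. A set of 9 NB4 genes had a median of 1.24% in Kasumi-1 control 2, against 0.0782% to 0.139% in the other Kasumi-1 libraries. Where a result below rests on these 2 libraries, it is also given without them if such a fit was made.

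The order of the 9 genes differed between the lines. In NB4 controls, ANPEP led with 66.9 ± 7.45 FPKM (SD, n = 3), followed by SPN with 45.5 ± 8.15, FUT4 with 18.3 ± 2.76 and CD44 with 13.0 ± 1.14. CD33, CD38 and CD9 came next with means of 8.08, 7.27 and 5.04 FPKM, and the samples of CD38 overlapped with those of both others. In Kasumi-1 controls, CD34 led with 97.4 ± 3.61 FPKM and CD44 followed with 26.6 ± 0.96. FUT4, SPN and ANPEP followed with 21.8, 18.8 and 15.6 FPKM. Their ranges came close, since the lowest SPN sample had 18.6 and the highest ANPEP sample 18.5 FPKM. CD33 had a mean of 8.57 FPKM and CD38 of 1.44 FPKM in Kasumi-1 controls. PROM1, which encodes the progenitor antigen CD133, was listed at 0 in all 12 libraries and was not tested. None of 15 genes that every cell uses was at 0 in any library, and 19.9% of all genes were at 0 in all 12.

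**Figure D1:**
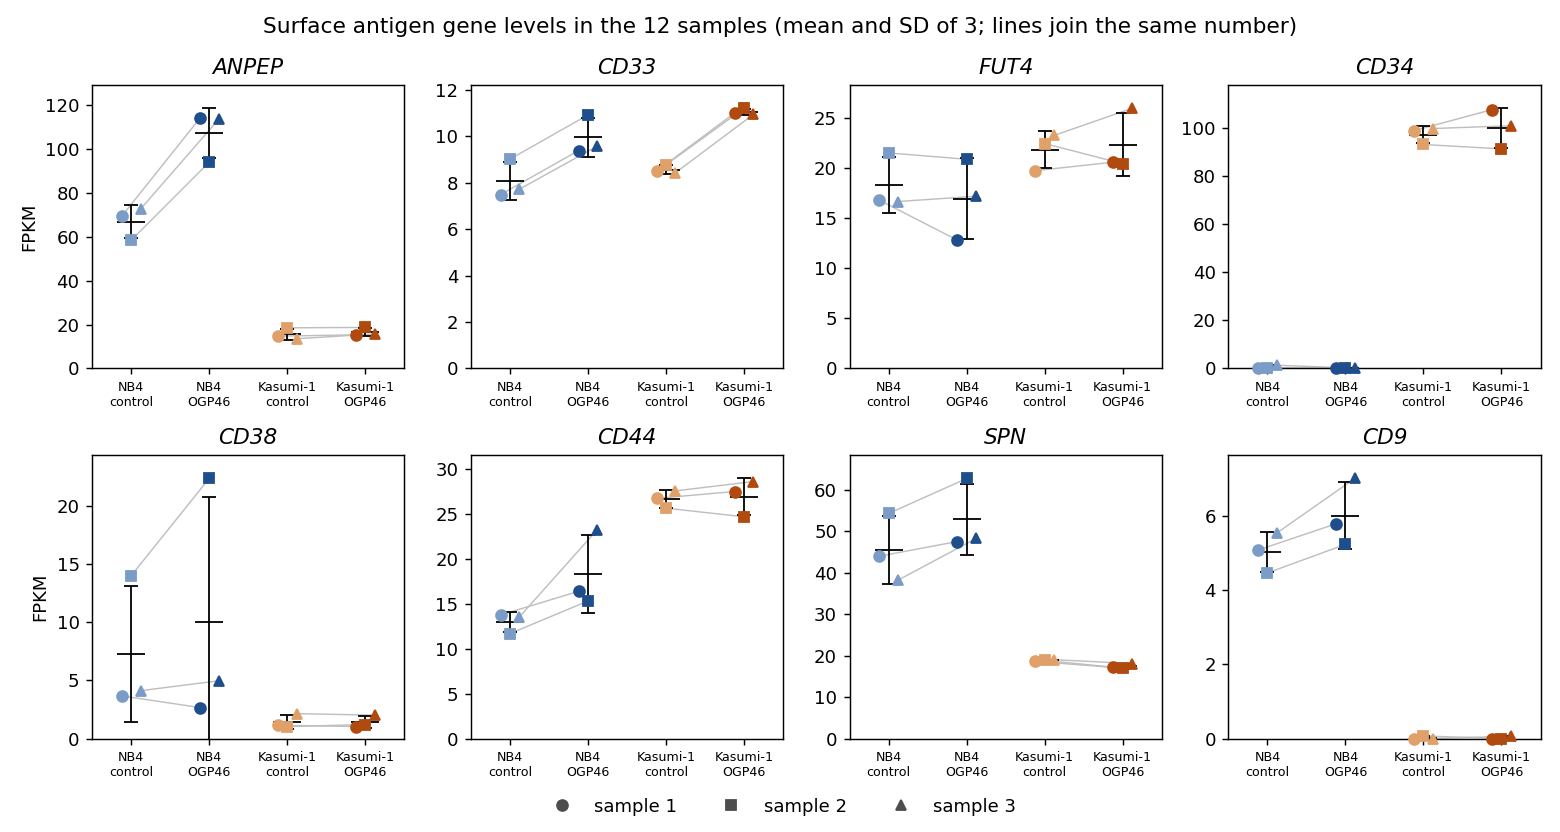
FPKM of 8 surface antigen genes (vertical axes, each from 0) in the 4 groups (horizontal axes). Points are samples, with the same number joined by a line, and black bars are the mean and SD of 3. ANPEP and CD33 are higher with OGP46 in all pairs of both lines, ANPEP in Kasumi-1 by ratios of only 1.01 to 1.16. CD38 is highest in the NB4 samples numbered 2. The SD bar of CD38 in NB4 with OGP46 passes below 0 and ends at the axis. PROM1, at 0 throughout, is not drawn.

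ANPEP, the gene of the membrane aminopeptidase CD13, was the member that passed the threshold for OGP46, and it did so in NB4. CD33, the gene of a sialic acid-binding inhibitory receptor, was higher with OGP46 in every pair of both lines but passed in neither. The sequences just before the RefSeq start sites of these 2 genes are shown because these were the members with the smallest unadjusted p for OGP46, ANPEP in NB4 and CD33 in Kasumi-1. Both are from RefSeq (GRCh38.p14), read 5′ to 3′ on the strand of the gene, and hold no base of an annotated exon of the gene (GENCODE 29). The ANPEP stretch lies within the annotated bounds of the gene, in an intron of the transcript that starts furthest upstream. The ANPEP stretch is chr15:89814865-89815102 (minus strand) and the CD33 stretch is chr19:51224830-51225063 (plus strand). Capitals mark the GC box GGGCGG, a common promoter element.
ANPEP: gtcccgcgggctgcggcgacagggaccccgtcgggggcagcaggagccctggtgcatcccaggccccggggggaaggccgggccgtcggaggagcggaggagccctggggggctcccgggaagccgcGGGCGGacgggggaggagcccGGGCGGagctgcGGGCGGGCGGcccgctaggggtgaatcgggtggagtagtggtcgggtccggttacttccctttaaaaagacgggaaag
CD33: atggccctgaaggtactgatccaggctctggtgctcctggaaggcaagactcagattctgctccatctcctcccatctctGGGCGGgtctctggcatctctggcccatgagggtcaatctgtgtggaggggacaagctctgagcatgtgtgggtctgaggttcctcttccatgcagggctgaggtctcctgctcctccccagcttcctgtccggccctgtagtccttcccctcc

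The 250 bases before the ANPEP start held 4 GC boxes, of which 2 overlap, and 74.0% G or C with 26 CpG dinucleotides. The same window of CD33 held 1 GC box and 58.8% G or C, but only 2 CpG. For comparison, the median over 27305 promoter windows was 58.0% G or C and 11 CpG, and 42.3% of the windows held a GC box on either strand. For other factors, letters were searched on both strands as well. The PU.1 core GAGGAAG was held by 11.0% of all windows. The RUNX letters TGTGGT were held by 10.9%. The MYB letters CAACTG were held by 9.1%. The TATA box TATAAA was held by 11.1%. The antioxidant response element, searched as TGACNNNGC, was held by 11.0%. The retinoic acid receptor letters AGGTCA were held by 12.1%. The ANPEP window held none of these. In the CD33 window the PU.1 core was found on the opposite strand, 11 bases before the start, beyond the end of the printed stretch. Such matches describe letters in these windows and nothing about binding.

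ANPEP lies on chromosome 15 (GRCh38, bases 89784889 to 89815401, minus strand). In NB4, it had 69.5, 58.5 and 72.7 FPKM in control samples 1 to 3 and 114, 94.1 and 114 FPKM in the samples with OGP46. Every OGP46 sample lay above every control. The change was 1.60-fold, with ratios of 1.64, 1.61 and 1.56 in the same-numbered pairs, a log2 fold change of 0.68 (SE 0.11, 95% confidence interval 0.43 to 0.94, adjusted p = 0.0335 from limma). Over all 11750 genes tested in NB4 the median was 0.178, and ANPEP stood 0.50 above it, higher than 96.0% of genes. With every sample centred on its median, the log2 fold change was 0.49 (adjusted p = 0.162 from limma), and ANPEP was not called. The call was also lost when NB4 control 3 was left out, with a log2 fold change of 0.74 and an adjusted p of 0.134 from limma, and on leaving out any other NB4 sample except OGP46 sample 2. In the fits where it was lost on leaving out a sample, at most 1 gene was called in each direction over all genes, and with median centring 0 of 11750 were (1807 at an unadjusted p below 0.05 from limma). With the sample number as a block, ANPEP had an adjusted p of 0.000175 from limma. With the block and median centring the adjusted p was 0.0061, and ANPEP was not called because its change of 0.49 was under the minimum of 0.58. In that fit 0 of 8 members were called in NB4, where 3.33% of all genes were called.

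In Kasumi-1, ANPEP had 14.7, 18.5 and 13.5 FPKM in the controls and 15.3, 18.7 and 15.7 FPKM with OGP46. All 3 pairs were higher with OGP46, with ratios of 1.04, 1.01 and 1.16, but the groups overlapped. The log2 fold change was 0.09 (SE 0.12, 95% confidence interval -0.17 to 0.36, adjusted p = 0.731 from limma). Without Kasumi-1 control 2, the highest control, it was 0.22 (adjusted p = 0.279 from limma). That fit kept OGP46 sample 2, the highest of its group, so it broke up the pair. With all samples kept and the signal of the other line subtracted, the log2 fold change was 0.12 (adjusted p = 0.588 from limma). The effect of OGP46 was 0.59 lower on the log2 scale in Kasumi-1 than in NB4 (SE 0.18), with an adjusted p of 0.274 from limma. With the sample number as a block, which takes same numbers within a line as pairs, the same difference had an adjusted p of 0.0164 from limma. With median centring in addition it was -0.45 with an adjusted p of 0.0413 from limma. ANPEP was the 1 member of 8 tested for which this difference was called with the block, where 1.93% of all genes were called, and 1.24% with median centring in addition. Without the block no gene was called (0.0%, with 11.0% at an unadjusted p below 0.05). Without the block and without Kasumi-1 control 2, the ANPEP difference was -0.46. No fit with the block left out NB4 control 3 or Kasumi-1 control 2.

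CD33 lies on chromosome 19 (GRCh38, bases 51225064 to 51243860, plus strand). In NB4, it had 7.49, 9.02 and 7.72 FPKM in the controls and 9.39, 10.9 and 9.58 FPKM with OGP46. In Kasumi-1, it had 8.50, 8.77 and 8.43 FPKM in the controls and 11.0, 11.2 and 10.9 FPKM with OGP46. The groups did not overlap in either line, and the Kasumi-1 pairs had ratios of 1.30, 1.28 and 1.30. The log2 fold change was 0.30 in NB4 (SE 0.11, adjusted p = 0.118 from limma) and 0.36 in Kasumi-1 (SE 0.06, adjusted p = 0.0611 from limma), both under the minimum of 0.58. In NB4 this was 0.12 above the median of all genes, and in Kasumi-1 0.32 above it, higher than 96.0% of genes there. With the sample number as a block, CD33 had an adjusted p of 0.0326 in NB4 and 0.0177 in Kasumi-1 from limma. In those fits 22.9% and 3.56% of all genes were under 0.05, whatever their change. With median centring in addition, the adjusted p from limma was 0.328 in NB4 and 0.0131 in Kasumi-1. The effects in the 2 lines differed by 0.06 (95% confidence interval -0.19 to 0.32).

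FUT4 is a single-exon gene on chromosome 11 (GRCh38, bases 94543840 to 94549898, plus strand) whose enzyme adds the fucose of the CD15 structure. It had 16.8, 21.5 and 16.7 FPKM in NB4 controls and 12.8, 20.9 and 17.2 FPKM with OGP46. In Kasumi-1, the values were 19.8, 22.5 and 23.3 FPKM in the controls and 20.6, 20.4 and 26.0 FPKM with OGP46. The groups overlapped in both lines. The log2 fold changes were -0.13 (95% confidence interval -0.54 to 0.28) in NB4 and 0.03 (-0.20 to 0.25) in Kasumi-1. FUT4 overlaps PIWIL4 on the same strand, and reads in the overlap could have gone to either gene.

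Counted over the members, 1 of 8 tested in NB4 was called, ANPEP, where 1.56% of all genes were called (1.45% higher and 0.111% lower). In Kasumi-1, 0 of 7 tested members were called by limma, where 0.0338% of all genes were called, and 0 with the block, where 0.617% were. At an unadjusted p below 0.05, 3 members passed in NB4 (ANPEP, CD33 and CD44) and 1 in Kasumi-1 (CD33), where 29.1% and 15.6% of all genes did. The OGP46 samples lay above all controls for 3 members in NB4, ANPEP, CD33 and CD44, and 32.7% of all genes did so there. In Kasumi-1, CD33 lay above (17.4% of all genes) and SPN below (5.23%). The members had a median of 0.23 on the log2 scale in NB4, beside 0.178 for all genes, and 0.03 in Kasumi-1, beside 0.05 for all genes.

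**Figure D2:**
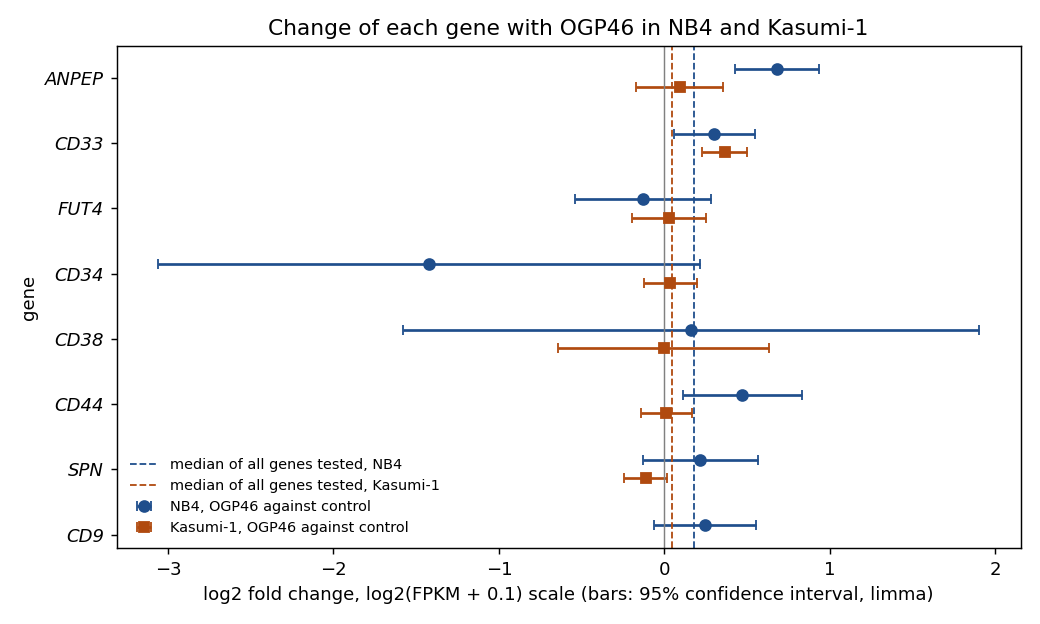
Log2 fold change with OGP46 (horizontal axis, log2(FPKM + 0.1) scale) for each gene (vertical axis) in NB4 (circles) and Kasumi-1 (squares), with 95% confidence intervals from limma. Dashed lines are the medians of all genes tested, 0.178 in NB4 and 0.05 in Kasumi-1. The NB4 interval of ANPEP (0.43 to 0.94) and the Kasumi-1 interval of CD33 (0.23 to 0.50) lie above these medians. The Kasumi-1 interval of SPN (-0.24 to 0.016) lies below the Kasumi-1 median, and CD38 and CD34 have wide intervals in NB4. CD9 was not tested in Kasumi-1.

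CD44, the receptor for the matrix sugar hyaluronan, was the remaining member whose groups did not overlap in NB4. It lies on chromosome 11 (GRCh38, bases 35138870 to 35232402, plus strand). It had 13.7, 11.7 and 13.5 FPKM in the controls and 16.4, 15.3 and 23.2 FPKM with OGP46. OGP46 sample 3 was the highest. This gave a log2 fold change of 0.47 (SE 0.16, adjusted p = 0.105 from limma), 0.29 above the median of all genes, and 0.29 when that sample was left out. With the sample number as a block the adjusted p was 0.0105, and with median centring in addition 0.0521, both from limma. CD44 was called in neither. In Kasumi-1, CD44 had 26.7, 25.6 and 27.5 FPKM in the controls and 27.5, 24.7 and 28.6 FPKM with OGP46. The groups overlapped, and the log2 fold change was 0.01 (95% confidence interval -0.14 to 0.17). The effect of OGP46 on CD44 was -0.46 in Kasumi-1 relative to NB4 (SE 0.18, adjusted p = 0.396 from limma) and was not called. The gene has 39 annotated transcripts, and the deposited value does not separate its splice forms.

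SPN encodes CD43, a mucin-like sialoglycoprotein of leukocytes, on chromosome 16 (GRCh38, bases 29662979 to 29670876, plus strand). In NB4, it had 44.0, 54.3 and 38.2 FPKM in the controls and 47.5, 62.7 and 48.2 FPKM with OGP46. In Kasumi-1, it had 18.6, 18.8 and 19.0 FPKM in the controls and 17.1, 17.0 and 18.1 FPKM with OGP46. All 3 pairs were higher with OGP46 in NB4, where the groups overlapped, and all 3 were lower in Kasumi-1, where they did not. Such opposite pairs, of either kind, were seen for 4.21% of all genes. The log2 fold changes were 0.22 (SE 0.15, adjusted p = 0.350 from limma) and -0.11 (SE 0.06, adjusted p = 0.370 from limma). The NB4 value was 0.04 above the median of all genes. SPN overlaps AC009086.2 on the same strand.

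CD9 encodes a tetraspanin, a protein that groups other membrane proteins at the cell surface, on chromosome 12 (GRCh38, bases 6199715 to 6238271, plus strand). In NB4, it had 5.09, 4.47 and 5.55 FPKM in the controls and 5.80, 5.24 and 7.03 FPKM with OGP46. The groups overlapped. CD9 had a log2 fold change of 0.25 (SE 0.13, adjusted p = 0.249 from limma), 0.07 above the median of all genes. In Kasumi-1, CD9 was listed at 0 in 4 of 6 libraries and at 0.0680 and 0.0631 FPKM in control 2 and OGP46 sample 3, so it was not tested there.

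CD38, an enzyme of NAD and cyclic ADP-ribose metabolism at the cell surface, varied among NB4 samples by sample number. The gene lies on chromosome 4 (GRCh38, bases 15778275 to 15853230, plus strand). It had 3.67, 14.0 and 4.12 FPKM in the controls and 2.67, 22.4 and 4.97 FPKM with OGP46. The samples numbered 2 were the highest of both groups. The log2 fold change was 0.16 with an SE of 0.76 (adjusted p = 0.896 from limma), and with the sample number as a block the SE was 0.16 and the 95% confidence interval -0.19 to 0.52. In Kasumi-1, CD38 had 1.14, 1.03 and 2.14 FPKM in the controls and 1.03, 1.20 and 2.01 FPKM with OGP46, and the samples numbered 3 were the highest of both groups. CD38 there had a log2 fold change of -0.0037 (95% confidence interval -0.64 to 0.64).

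Over the 12 samples, taken as deviations from the mean of each line, the 3 genes most like CD38 among 8795 genes were ITGA5 (r = 0.97), MPP6 (r = 0.93) and PODXL (r = 0.93). ITGA5 encodes a subunit of the fibronectin receptor and PODXL a sialomucin of the CD34 family. ITGA5 had 27.9 and 30.4 FPKM in the NB4 samples numbered 2 and between 18.1 and 21.3 FPKM in the other 4. Among the members, FUT4 (r = 0.86) and SPN (r = 0.78) followed CD38 most closely. These samples share cell line and sample number, and the correlations are given as a description.

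**Figure D3:**
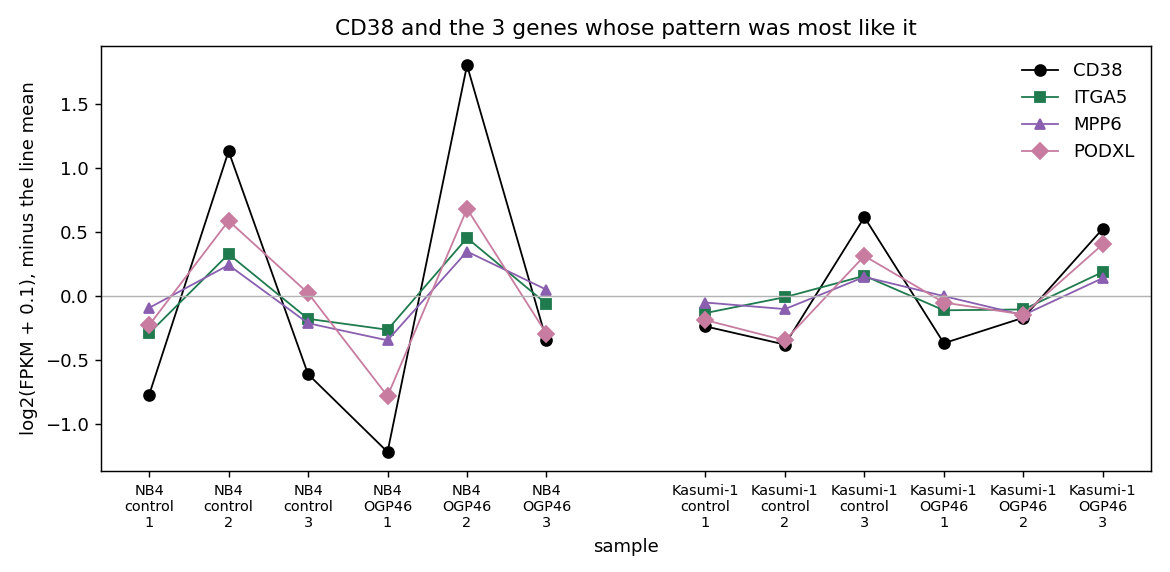
Deviation of log2(FPKM + 0.1) from the mean of each line (vertical axis) for CD38, ITGA5, MPP6 and PODXL in the 12 samples (horizontal axis). CD38 peaks in the NB4 samples numbered 2 (14.0 FPKM in the control and 22.4 FPKM with OGP46) and in the Kasumi-1 samples numbered 3, with smaller peaks of the other genes at the same samples.

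For the other members the most similar gene was ACTB for ANPEP (r = 0.95), ERMP1 for CD33 (r = 0.94), ANGEL1 for FUT4 (r = 0.96), EGLN1 for CD44 (r = 0.99), MTHFD1L for SPN (r = 0.95) and FOXRED1 for CD9 (r = 0.90). For CD9, r was 0.53 within NB4 and 0.996 within Kasumi-1, where CD9 was at 0 in 4 of 6 libraries. ACTB, the gene of cytoplasmic actin, had between 2898 and 3060 FPKM in NB4 controls and between 3532 and 3662 FPKM with OGP46. EGLN1, an oxygen-sensing hydroxylase, had its highest NB4 value, 5.66 FPKM, in OGP46 sample 3, as CD44 did. NCF4 (r = 0.95), a subunit of the phagocyte oxidase, and GPSM3 (r = 0.95) were the next most similar to ANPEP. TKFC and NXF1 (both r = 0.93) were next for CD33.

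CD34, a sialomucin of progenitor cells, led in Kasumi-1 and had at most 1.31 FPKM in NB4, where it was highest in the library where other Kasumi-1 genes were highest. It lies on chromosome 1 (GRCh38, bases 207880972 to 207911402, minus strand). In Kasumi-1, it had 99.1, 93.3 and 99.9 FPKM in the controls and 108, 91.4 and 101.1 FPKM with OGP46. The log2 fold change there was 0.04 (95% confidence interval -0.12 to 0.20). In NB4, it had 0.0601, 0.154 and 1.31 FPKM in the controls and 0.0437, 0.0149 and 0.0804 FPKM with OGP46. Control 3 was the highest, and the groups overlapped. The log2 fold change was -1.42 (SE 0.71, adjusted p = 0.220 from limma). With the sample number as a block the adjusted p was 0.0361 and CD34 was called lower, which made 2 of 8 members called in NB4, where 6.21% of all genes were called.

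CD34 was lower with OGP46 in all 3 NB4 pairs, with ratios of 0.73, 0.096 and 0.061. When median centring was added to the block, the adjusted p was 0.0924 from limma and CD34 was not called. No fit with the block left out NB4 control 3, so the part of that library in the call was not tested. In NB4 control 3, CD34 was at 1.33% of its Kasumi-1 mean, beside the median of 1.13% for the 10 other Kasumi-1 genes in the same library. In the remaining 5 NB4 libraries it was at 0.0151% to 0.156%. With the signal of the other line subtracted, 0.199 FPKM were left in control 3 and the mean over NB4 was 0.0362 FPKM, below the minimum for a test. Without control 3 the mean was 0.0707 FPKM, also below it, so in both cases CD34 could not be called whatever its change. The gene most like CD34 over the 12 samples was ELANE (r = 0.92), with an r of 0.94 within NB4, where CD34 had at most 1.31 FPKM, and of -0.49 within Kasumi-1. The level of ELANE, a granule protease gene, in NB4 control 3 was 1.13% of that in Kasumi-1.

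**Figure D4:**
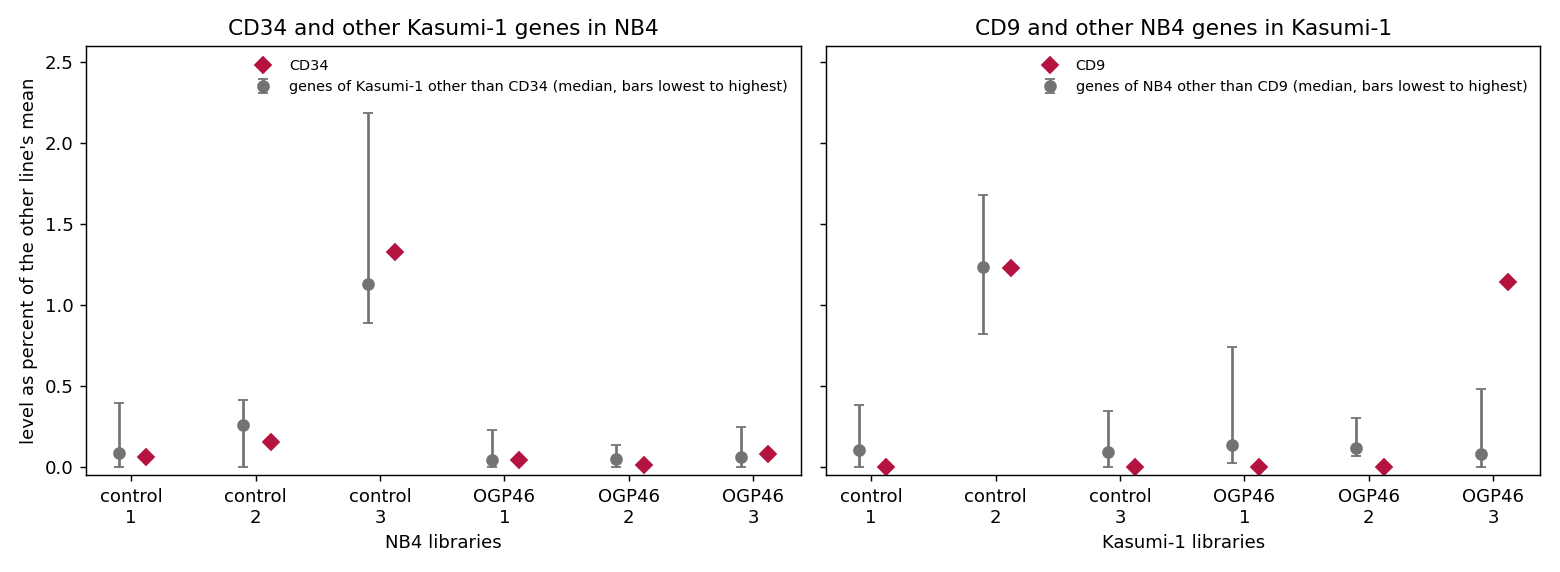
Level of CD34 in NB4 libraries (left) and of CD9 in Kasumi-1 libraries (right), as percent of the mean of the other line (vertical axis), beside the median and range of other genes strong in that line. CD34 in NB4 control 3 (1.33%) and CD9 in Kasumi-1 control 2 (1.23%) lie within the range of the other genes, while CD9 in Kasumi-1 OGP46 sample 3 (1.14%) lies above it.

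Between the controls of the 2 lines, 6 of the 8 members tested were called, where 52.4% of all genes were called. CD34 (log2 difference 7.98, SE 0.65, adjusted p = 5.4e-06 from limma) and CD44 (1.03, SE 0.08, adjusted p = 4.8e-06) were higher in Kasumi-1. ANPEP (-2.10, SE 0.13, adjusted p = 8.2e-07 from limma), CD38 (-2.05, SE 0.47, adjusted p = 0.0036), SPN (-1.25, SE 0.12, adjusted p = 1.2e-05) and CD9 (-5.43, SE 0.23, adjusted p = 1.1e-07) were lower. ANPEP was 4.29 times as high and SPN 2.42 times as high in NB4 as in Kasumi-1 controls, and CD44 was 2.05 times as high in Kasumi-1. Because CD34 in NB4 and CD9 in Kasumi-1 were near 0, the size of their differences depended on the settings, and ran from 6.12 to 9.40 for CD34 and from -7.99 to -2.56 for CD9 over all alternatives. Without NB4 control 3, the CD34 difference was 8.92. Without NB4 control 2, the highest CD38 control, the CD38 difference was -1.45 (adjusted p = 0.00090 from limma). CD33 (0.09, 95% confidence interval -0.12 to 0.30) and FUT4 (0.26, -0.00054 to 0.52) were not called. The median difference was -0.58 for the members and 0.10 for all genes.

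Relatives and partners of the members were read from lists. Of 22 tested genes in a list of other myeloid typing antigens, 2 rose in NB4, the integrin subunits ITGAX (CD11c, log2 fold change 1.11) and ITGAM (CD11b, 1.08), with adjusted p = 0.0335 and 0.0233 from limma. Over all genes 1.45% were called higher. The list had a median of 0.32. With the sample number as a block 8 rose, where 5.06% of all genes were called higher and 1.15% lower, and with median centring in addition 6 rose and 1 fell, where 1.82% were called higher and 1.51% lower. ITGAX had 0.66, 0.55 and 0.79 FPKM in the controls and 1.71, 1.66 and 1.29 FPKM with OGP46. In Kasumi-1, 0 of 19 tested genes of this list were called, and with the block 1 fell, HLA-DRA (-0.78, adjusted p = 0.0029 from limma), a chain of the MHC class II antigen HLA-DR, where 0.346% of all genes were called lower. HLA-DRA had 12.9, 10.3 and 11.3 FPKM in the Kasumi-1 controls and 8.27, 5.32 and 6.60 FPKM with OGP46.

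Of the siglecs, the family of CD33, 7 were tested in NB4 and 0 were called by limma without the block, although 4 rose with it, where 5.06% of all genes were called higher, and the median log2 fold change was 0.60. SIGLEC5 rose with the block from 1.83, 1.63 and 1.94 FPKM to 3.14, 2.71 and 2.54 FPKM (log2 fold change 0.60, adjusted p = 0.0541 without and 0.0059 with it). SIGLEC7 rose with the block (log2 fold change 0.85, adjusted p = 0.0659 without and 0.0072 with it). With median centring in addition, 1 siglec was called. In Kasumi-1, the median over 7 siglecs was 0.02 and 0 were called with or without the block.

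Of the tetraspanins, the family of CD9, 16 were tested in NB4 and 1 rose, CD82 (log2 fold change 0.58, adjusted p = 0.0335 from limma), from 24.8, 21.1 and 20.9 FPKM to 35.0, 30.7 and 34.4 FPKM. With the block 3 rose, and with median centring in addition none rose and 1 fell. Over all genes, 1.45% were called higher without the block. With the block 5.06% were called higher and 1.15% lower, and with median centring in addition 1.82% and 1.51%. Of 21 tested genes for hyaluronan, the cytoskeletal anchors of CD44 and CD43, and mucin glycosylation, 1 rose in NB4. This was MMP14 (1.14, adjusted p = 0.0289 from limma), a membrane protease that cleaves CD44, from 32.4, 22.3 and 27.3 FPKM to 71.6, 51.5 and 57.6 FPKM. With the block 3 of this list rose and 1 fell, and with median centring in addition 2 rose and 1 fell, beside the same shares of all genes. Under median centring, quantile normalization or TPM scaling without the block, no gene was called in NB4, so the calls of ITGAX, ITGAM, CD82 and MMP14 were lost there. On leaving out any 1 NB4 sample except OGP46 sample 2, at most 1 gene was called higher, so at most 1 of these calls could remain. With the block and median centring ITGAX, ITGAM and MMP14 were called and CD82 was not.

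The remaining lists held 7 tested M1 aminopeptidases (the family of ANPEP) and 7 tested fucosyltransferases (the family of FUT4). They also held 2 tested relatives of CD34 and CD38, and 10 tested partners of CD9, CD38 and CD33. PROM2, listed as a relative of PROM1, was under the minimum of 0.1 FPKM and was not tested. Among the tested genes, 0 were called in NB4 by limma without the block. The genes with the smallest p in these lists were ERAP1 (0.40) and ERAP2 (0.30), FUT1 (0.52) and FUT8 (0.42), BST1 (0.49) and PODXL (-0.26), and ADAM17 (0.53) and PTGFRN (0.52), all as log2 fold changes. With the block 1 of the partners was called higher, where 5.06% of all genes were called higher. In Kasumi-1, 0 genes of these 8 lists were called without the block. The T cell marker CD3D had between 13.5 and 20.4 FPKM in NB4 controls and between 22.5 and 34.6 FPKM with OGP46, and the 10 other-cell markers summed to between 19.96 and 26.3 FPKM in controls and between 30.2 and 40.1 FPKM with OGP46. CD3E and MS4A1 were at or near 0 in NB4, with at most 0.06 FPKM. The sum of the 5 granule protein genes lay between 2605 and 3945 FPKM in NB4 controls and between 1586 and 2812 FPKM with OGP46. MPO alone had between 2394 and 3323 FPKM in those controls. Each of the 5 genes was lower with OGP46 in 3 of 3 pairs in both lines. In NB4, 0 were called lower without the block, 4 with it and 5 with median centring in addition. Over all genes 0.111%, 1.15% and 1.51% were called lower in these fits. In Kasumi-1, 0, 0 and 1 were called lower, where 0.0169%, 0.346% and 0.558% of all genes were. The sum of these 5 genes in Kasumi-1 lay between 9612 and 11917 FPKM in controls and between 7759 and 8972 FPKM with OGP46. Of the Kasumi-1 markers TRH fell there (log2 fold change -0.84, adjusted p = 0.0103 from limma), also with the block (adjusted p = 0.0018). With no mean-variance trend, without Kasumi-1 control 1 or without Kasumi-1 OGP46 sample 1, no gene was called in Kasumi-1. The TRH call was lost in those fits. The part of these markers in the values of ANPEP, CD44 and CD33 with OGP46 was not tested.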

How the data were processed

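Poly(A) RNA of 12 samples (3 per group) was sequenced with a stranded kit. The authors deposited FPKM per gene symbol. The submitters' processing notes name Trimmomatic, HISAT2, HTSeq, Cufflinks and hg38. Versions, annotation and strand setting are not given in the sources used here. The FPKM summed to between 248207 and 310262 per sample, and depth is unknown. In NB4 every OGP46 sum (263341 to 291523) was above every control sum (248207 to 256268). The Kasumi-1 sums overlapped (279802 to 296455 with OGP46, 279879 to 310262 in controls). TPM scaling, an alternative below, sets the sums equal. After leaving out 27 symbols turned into dates, 20003 genes remained. Differences were tested in limma 3.58.1 (R 4.3.3) on log2(FPKM + 0.1) with a mean-variance trend, leaving out genes under a mean of 0.1 FPKM, and p-values were adjusted over all genes (Benjamini-Hochberg). The effect of OGP46 was compared between lines as an interaction over 12 samples. The fits without the block and without median centring were tested on simulated data that held no pairing. The fits with the block or with centring were not tested in this way. In each line, deviations of samples with the same number were correlated between control and OGP46 (r = 0.44 to 0.85 in NB4, 0.42 to 0.62 in Kasumi-1, genes at 5 FPKM or more). Over all genes tested, r was lower, 0.20 to 0.62 in NB4 and 0.16 to 0.40 in Kasumi-1. On these correlations alone the numbers were taken as pairs, since the labels do not say what same-numbered samples share. Genes named were the 9 members, and per list the called genes (up to 4 per direction) or the 2 with the smallest p, and the 3 genes most correlated with each member. Coordinates are from GENCODE 29. The members and lists were chosen with earlier results of these data known. The other-line gene sets and the subtraction were chosen after seeing the data.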

Additional observations from a re-analysis of the deposited data

Results flagged for a closer look

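The effect of OGP46 on ANPEP differed between the cell lines when the sample number was a block. The difference, Kasumi-1 minus NB4, was -0.59 on the log2 scale (adjusted p = 0.0164 from limma with the block, 0.274 without). ANPEP was higher with OGP46 in 3 of 3 pairs in both lines, with ratios of 1.56 to 1.64 in NB4 and 1.01 to 1.16 in Kasumi-1.

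SPN was higher with OGP46 in 3 of 3 NB4 pairs and lower in 3 of 3 Kasumi-1 pairs.  The difference was -0.33 on the log2 scale (adjusted p = 0.496 from limma, 0.0976 with the block), so it was not called.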

How the results depend on the processing

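In NB4, 1 member was called. With no trend, no filter, quantile normalization, median centring (with or without the block) or TPM scaling, 0 were called. Over all genes, 0 were called by limma with TPM scaling, median centring or quantile normalization without the block (1942, 1807 and 1764 at an unadjusted p below 0.05), 3 higher and 1 lower with no trend, and 6 higher with no filter. With the replicate block, which takes same numbers as pairs, 2 members were called (ANPEP, CD34), and on leaving out 1 sample 0 to 1. For the difference between lines, 1 member was called with the replicate block and 1 with median centring in addition, against 0. The block changed no other call of a member. The ANPEP effect in NB4 kept its direction under all alternatives (0.49 to 0.77). In the comparison of control samples the numbers are only names (r = -0.0093, 0.041 and -0.0075 between lines), and 6 members were called with or without a block. Without a filter, CD38 was not called there (adjusted p = 0.0559 from limma), which left 5 members.

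Effects near 0 changed sign. In NB4, CD38 was -0.030 under median centring with or without the block, -0.048 under quantile normalization, and -0.70 to 0.81 on leaving out 1 sample. FUT4 was -0.29 to 0.058 on leaving out 1 sample, but -0.32 under median centring with or without the block. In Kasumi-1, CD38 was 0.014 under TPM scaling, 0.039 after subtraction of the other line, and -0.27 to 0.30 on leaving out 1 sample. FUT4, CD34 and CD44 were -0.037, -0.029 and -0.052 under median centring, with or without the block, and CD44 was -0.013 under quantile normalization. On leaving out 1 sample, FUT4 was -0.085 to 0.087, CD34 -0.018 to 0.10, CD44 -0.032 to 0.074 and ANPEP -0.00088 to 0.22. For the difference between lines, CD9 was 0.0063 under quantile normalization, and on leaving out 1 sample CD38 was -0.82 to 0.70, CD33 -0.018 to 0.13 and FUT4 -0.031 to 0.32. Between controls, CD33 was -0.11 under TPM scaling. The cause of these changes was not tested. With 3 samples a group and no counts, small differences were not resolved, and an exact permutation test of 3 against 3 could not go below 0.1.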
